A study of Mus musculus with 10 samples.

Results

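The genes described here are 30 named genes of sterol and fatty acid synthesis, 18 in a sterol arm and 12 in a fatty acid arm, followed in J558 cells given Pax5. A member was measured where the platform annotation pairs a probe set with its symbol alone. By that rule 28 of 30 were found among 19937 genes, 17 of the sterol arm and 11 of the fatty acid arm. Acat2 had no entry by that symbol, and the probe set of Acsl3 is shared with a second gene, so neither has a value. J558 is an established mouse line from a plasma-cell tumour (myeloma). All 10 cultures had been infected with the retroviral vector MSCV-Puro-IRES-GFP (PIG), which adds puromycin resistance and green fluorescent protein. The groups were empty vector (EV, 3 arrays), wild-type Pax5 (3 arrays) and the mutant Pax5 G183S (4 arrays), labelled as independent biological replicates. After 5 to 7 days in puromycin the cells were sorted for GFP and IgM, so each array is a sorted pool of 1 myeloma line with Pax5 driven by the vector. In such bulk RNA, fewer cells that express a gene and less RNA per cell cannot be told apart.

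Cells make cholesterol from acetyl-CoA through mevalonate, squalene and lanosterol. The same precursor, carboxylated by acetyl-CoA carboxylase, is built into fatty acids by fatty acid synthase and then elongated and desaturated. Both routes are switched on by SREBP transcription factors, encoded by Srebf1 and Srebf2. When sterol is low the escort protein SCAP carries SREBP out of the endoplasmic reticulum for cleavage, and when sterol is plentiful INSIG proteins hold it there. SREBP binds sterol regulatory elements, usually beside sites for NF-Y (the CCAAT box) and Sp1 (the GC box). Plasma cells, with their large endoplasmic reticulum, are heavy users of membrane lipid. Pax5 is the transcription factor that keeps B-cell identity and is switched off in plasma cells.

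RefSeq promoter windows of 5 sterol members are shown because the sterol genes moved together between arrays, as described below. Each is the 250 bases before the annotated start in GRCm38.p6, written 5′ to 3′ on the gene's strand. Capitals mark matches to the sterol element core TCACNCCAC or to the CCAAT box, which reads ATTGG when it lies on the opposite strand.
Hmgcs1, chr13:119690101-119690350, plus strand: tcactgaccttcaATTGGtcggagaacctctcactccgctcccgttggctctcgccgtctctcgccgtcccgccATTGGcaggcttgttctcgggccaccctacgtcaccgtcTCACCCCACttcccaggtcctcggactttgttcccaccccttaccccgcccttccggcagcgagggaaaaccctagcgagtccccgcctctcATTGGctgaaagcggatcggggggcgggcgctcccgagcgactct
Insig1, chr5:28071162-28071411, plus strand: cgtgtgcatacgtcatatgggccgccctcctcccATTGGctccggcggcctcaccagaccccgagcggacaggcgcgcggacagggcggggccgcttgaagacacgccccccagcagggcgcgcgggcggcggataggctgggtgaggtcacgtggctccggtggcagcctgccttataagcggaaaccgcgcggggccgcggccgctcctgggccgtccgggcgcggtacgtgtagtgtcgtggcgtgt
Idi1, chr13:8885356-8885605, plus strand: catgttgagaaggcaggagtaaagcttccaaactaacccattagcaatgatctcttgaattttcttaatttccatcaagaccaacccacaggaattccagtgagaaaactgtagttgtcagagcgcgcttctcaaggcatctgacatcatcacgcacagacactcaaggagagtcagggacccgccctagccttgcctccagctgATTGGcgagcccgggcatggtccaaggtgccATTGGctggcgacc
Cyp51, chr5:4104698-4104947, minus strand: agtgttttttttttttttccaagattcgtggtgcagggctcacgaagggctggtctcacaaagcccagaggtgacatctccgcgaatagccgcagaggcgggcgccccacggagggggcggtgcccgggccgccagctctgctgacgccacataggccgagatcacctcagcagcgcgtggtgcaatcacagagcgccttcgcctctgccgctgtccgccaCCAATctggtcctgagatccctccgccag
Nsdhl, chrX:72918271-72918520, plus strand: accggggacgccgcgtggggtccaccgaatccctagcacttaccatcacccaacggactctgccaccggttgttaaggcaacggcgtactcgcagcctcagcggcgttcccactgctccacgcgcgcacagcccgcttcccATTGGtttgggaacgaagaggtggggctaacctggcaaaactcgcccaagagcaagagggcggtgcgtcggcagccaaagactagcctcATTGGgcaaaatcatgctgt

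Hmgcs1, which makes HMG-CoA, held the only match to the element core among the 17 windows of the 14 sterol genes found in the table. That is 5.88% of windows, against 1.05% of all 32851 windows of this length. The CCAAT box stood in 12 of the 17 (70.6%, all windows 33.8%), and the GC box GGGCGG in 15 (88.2%, all windows 32.7%). The E box CACGTG, another SREBP binding sequence, was in 5 (29.4%, all windows 6.02%). In the fatty acid arm, 5 of 11 windows held a CCAAT box and 5 a GC box (45.5% each), 1 an E box (9.09%) and 0 the element core. Both strands were searched, and 0 matches of different motifs overlapped in the members' windows. Dhcr7, Scap and Srebf1 have several windows each. A match describes the letters only.

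Pax5 transcript, the check on the labels, read 7.10, 6.84 and 7.01 log2 units with empty vector, 10.67, 10.09 and 10.05 with wild type and 10.22, 10.36, 9.38 and 9.96 with G183S, so every array with a Pax5 vector lay above every empty-vector array. The median of an array was 6.81 to 6.94 on the log2 scale, and arrays correlated at 0.978 to 0.998 with each other. Of 8 plasma-cell markers, 0 had a group mean below the median of all probe-set values. Their mean was 11.75, 11.81 and 11.93 log2 units with empty vector, 11.79, 11.96 and 11.49 with wild type and 11.93, 10.99, 11.04 and 11.29 with G183S. The list means of other cell types were 6.11 to 6.86 for 4 T-cell genes, 6.35 to 6.69 for 6 macrophage genes, 6.71 to 6.99 for 5 stromal and adipose genes and 5.61 to 5.83 for 3 hepatocyte genes over all arrays. With empty vector, wild type and G183S in turn, 3, 4 and 4 of the 4 T-cell genes had a group mean below that median, as did 5, 4 and 4 of the 6 macrophage genes. In each group 3 of the 5 stromal and adipose genes and 2 of the 3 hepatocyte genes were below it. Single genes were high, such as Cd68, with group means from 9.38 to 9.92, and Cd4, at 9.29 in empty-vector replicate 2, both picked after their values were seen. Background signal was not used here, so no gene is called absent. Wild-type replicate 1 and G183S replicate 1 were the highest arrays on the first principal component of the genes other than the members, at 39.49 and 24.77, with wild-type replicates 2 and 3 at 17.49 and 2.20 and all other arrays below 0.

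No member of either arm passed the threshold in any comparison of group means. With wild type against empty vector, 0 of 17 sterol and 0 of 11 fatty acid genes passed limma's adjusted p of 0.05, where 1.88% of all 19937 genes did. For G183S against empty vector the counts were again 0 of 17 and 0 of 11, against 0.311% of all genes, and for G183S against wild type 0 and 0, against 0%. Of all genes 0.883% passed higher and 0.993% lower with wild type (176 and 198 genes, or 100 and 218 with arrays centred on their medians), and 0.1% higher and 0.211% lower with G183S. At an unadjusted p of 0.05, 1 of the 28 members passed with wild type (15.9% of all genes), Lpin1, which was lower (0 members higher; all genes 7.38% higher and 8.55% lower). With G183S 4 passed (11.3% of all genes), Scd2 higher (5.12%) and Fdft1, Mvd and Srebf1 lower (6.18%). In the direct comparison 1 passed (9.48%), Scd2 higher (5.08%), and 0 lower (4.41%). A linear model without moderation also called 0 members in each comparison. Groups did not overlap for 4 members with wild type (24% of all genes), Sqle and Idi1 higher (11.5%) and Mvd and Lpin1 lower (12.5%). With G183S there were 3 (11.6%), Scd2 higher (5.02%) and Fdft1 and Mvd lower (6.56%), and between G183S and wild type 0 (6.5%, of which 2.33% higher and 4.17% lower). These shares of the members are below the background or near it. The 2 comparisons with empty vector share its 3 arrays.

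Medians of the arms lay near those of all genes for wild type and somewhat lower for G183S. The median log2 difference from empty vector was 0.02 for the sterol arm and -0.07 for the fatty acid arm with wild type (all genes 0.01), and -0.13 and -0.12 with G183S (all genes -0.0033). Between G183S and wild type the medians were -0.14 and 0.01 (all genes -0.02), with 1 of 17 sterol genes above 0 (all genes 43.5%). Against empty vector 10 of 17 were above 0 with wild type (all genes 53.9%) and 4 of 17 with G183S (all genes 48.8%). In the fatty acid arm 4, 2 and 6 of 11 were above 0 with wild type, with G183S and between them. These medians have no test, and they moved with single arrays. Without wild-type replicate 1 the sterol median was -0.16 against empty vector and 0.01 between G183S and wild type. Without wild-type replicate 3 these were 0.20 and -0.28, and without G183S replicate 1 the G183S medians were -0.22 against empty vector and -0.33 against wild type. The fatty acid median with wild type was -0.16 without wild-type replicate 1, and that between G183S and wild type 0.06. The intervals of single genes were wide enough to hold sizeable changes, as for Idi1 with wild type (-0.06 to 1.94 log2 units, 95%).

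**Figure D1:**
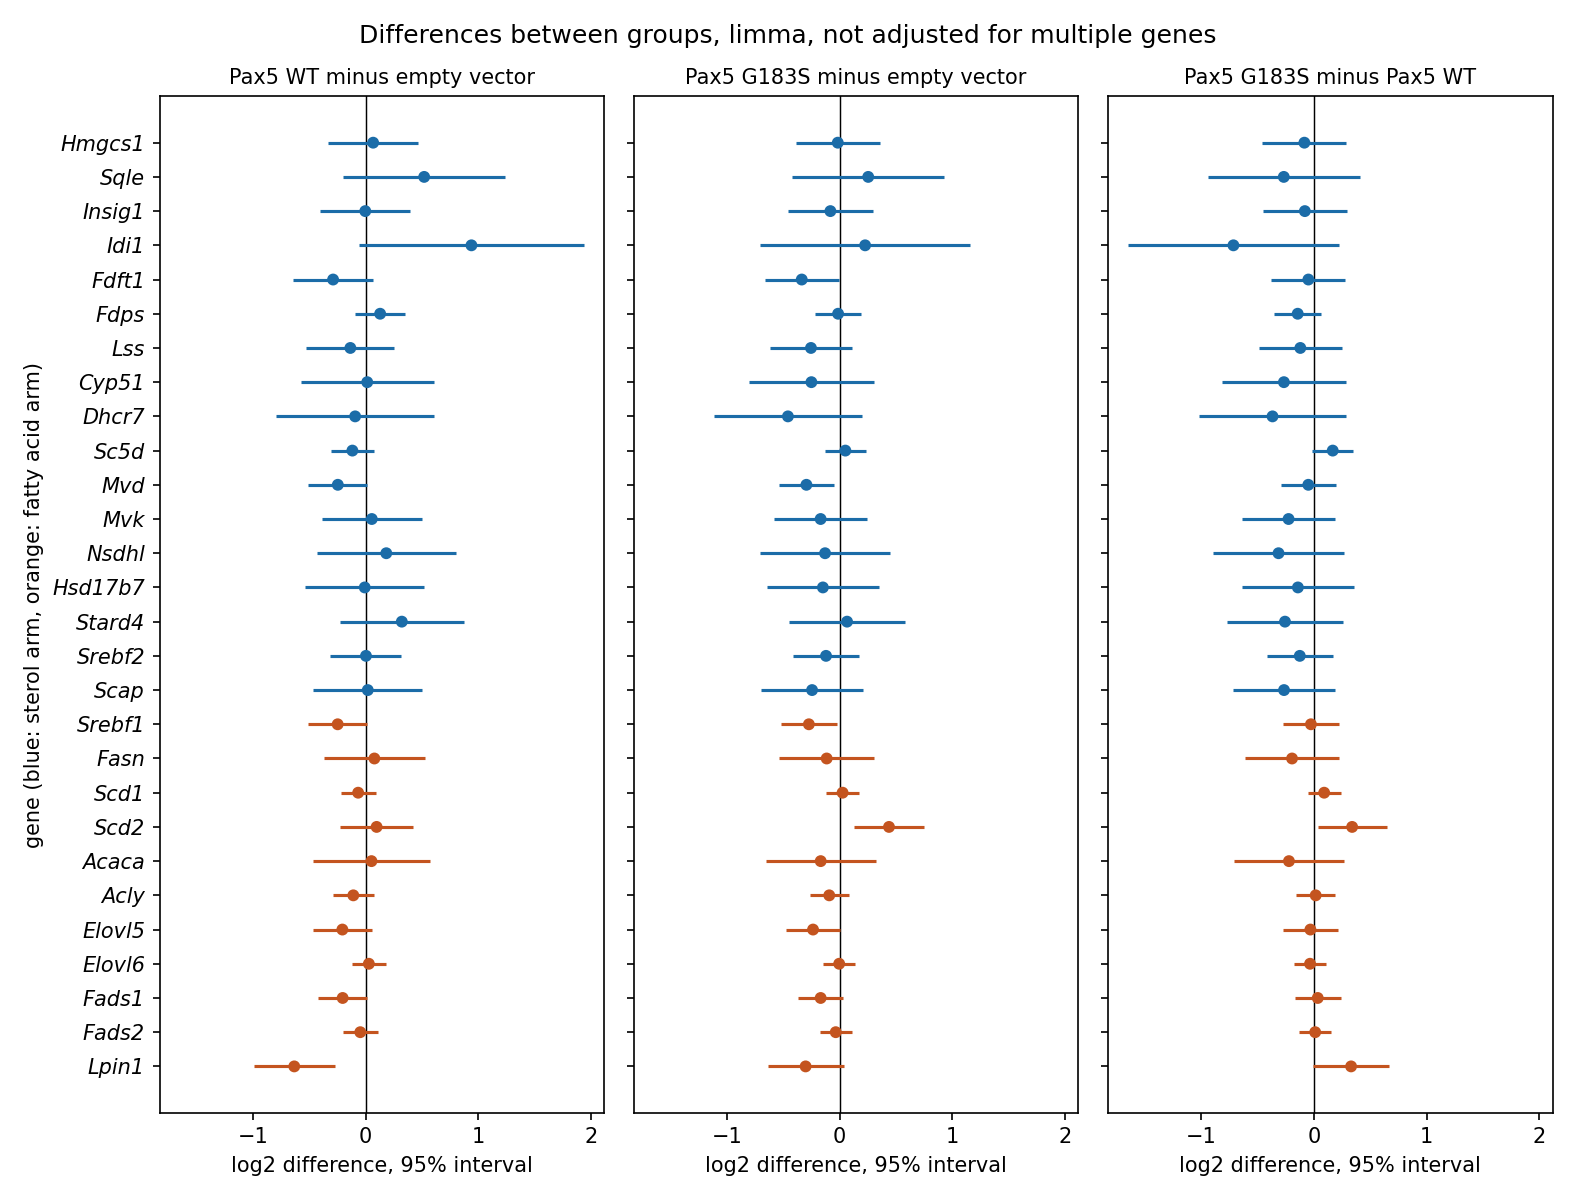
Log2 difference of each member in the 3 comparisons, with its 95% limma interval on the horizontal axis, sterol arm in blue and fatty acid arm in orange. Most intervals span 0, the widest are those of Idi1, and Lpin1 with wild type (-0.63) and Scd2 with G183S (0.44) lie farthest from 0 for their width.

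What the sterol genes showed was a wide, shared spread between replicate arrays of the Pax5 groups, beside tight empty-vector arrays. The median SD of a sterol gene was 0.04 log2 units over empty-vector arrays, 0.39 over wild-type and 0.25 over G183S arrays, where the medians of all genes were 0.09, 0.12 and 0.12. Of the 17 sterol genes, 16 varied more among wild-type than among empty-vector arrays and 17 more among G183S arrays, as did 60.8% and 65.5% of all genes. Other lipid genes were also more spread, 11 and 11 of 11 further genes of sterol synthesis and its control (median SDs 0.07, 0.24 and 0.23) and 36 and 39 of 44 in all 3 further lists (81.8% and 88.6%). Each plasma-cell marker also varied more in both Pax5 groups than with empty vector. Prdm1 had SDs of 0.05, 0.32 and 0.54 and Xbp1 of 0.07, 0.22 and 0.26. Wide spread was thus not particular to the sterol genes. The shares of all genes include dim genes, which were not set apart here. Wild-type replicate 1 was the highest wild-type array in 16 of 17 (33.5% of all genes) and G183S replicate 1 the highest G183S array in 15 of 17 (28.9%). Both held together in 15 of 17 (16.6%). These counts of 16 and 15 were the same with arrays centred on their medians and after a further quantile normalization. The difference in spread was not tested. Over all genes, the deviations of wild-type replicate 1 and G183S replicate 1 from their group means correlated at 0.51. The shared direction of these arrays was thus not confined to sterol genes.

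**Figure D2:**
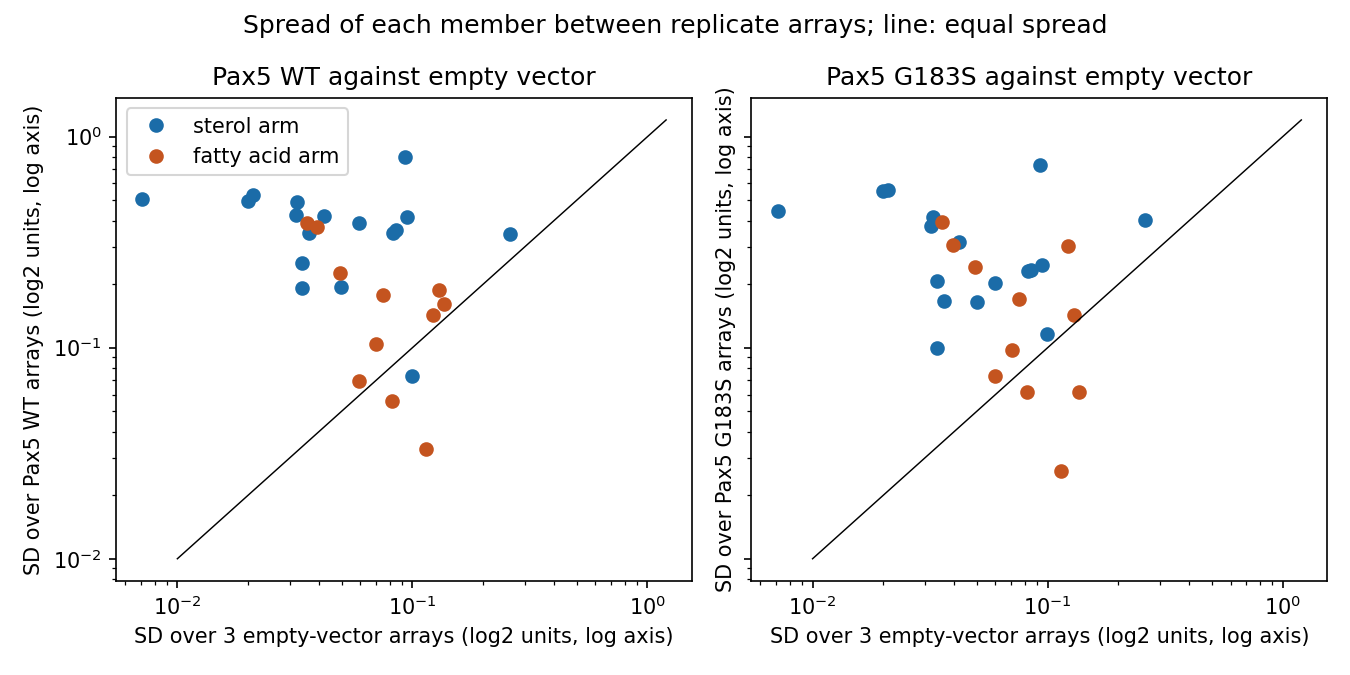
SD of each member over the empty-vector arrays (horizontal) against its SD over the wild-type arrays (left) or G183S arrays (right), both on log axes in log2 units, with the line of equal spread. 16 sterol genes on the left and 17 on the right lie above the line.

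As a mean over the 17 genes, the sterol arm differed from the empty-vector mean by -0.03, 0.02 and 0.01 log2 units over the arrays with empty vector. In wild-type arrays it differed by 0.48, 0.02 and -0.26, and in G183S arrays by 0.29, -0.32, -0.28 and -0.15. Replicate 1 of each Pax5 group thus lay above all empty-vector arrays, wild-type replicate 2 within 0.02 of their mean, and wild-type replicate 3 and G183S replicates 2, 3 and 4 below them. Gene by gene, 13 of 17 were above every empty-vector array in both replicates 1 (19.8% of all genes), 13 were below every one in wild-type replicate 3 (29.7%), and 10 were below every one in each of G183S replicates 2, 3 and 4 (13.2%). Pax5 transcript was also highest in wild-type replicate 1 among wild-type arrays, but among G183S arrays it was highest in replicate 2. Plasma-cell markers moved with this pattern in part. Of the 8, 5 (Sdc1, Prdm1, Xbp1, Irf4 and Mzb1) were highest in replicate 1 of both Pax5 groups (16.6% of all genes). All 8 were highest of the G183S arrays in replicate 1 (28.9%), and 6 were lowest of the wild-type arrays in replicate 3 (32.7%). Tnfrsf17, Slamf7 and Jchain were instead highest of the wild-type arrays in replicate 2, and Tnfrsf17 and Slamf7 were lowest in wild-type replicate 1. Prdm1, a regulator of plasma-cell identity, read 10.46, 10.40 and 10.51 with empty vector, 11.12, 10.83 and 10.49 with wild type and 11.14, 10.16, 9.96 and 10.13 with G183S. The macrophage marker Mrc1, at 5.64, 5.83 and 6.02 with empty vector, 8.45, 7.18 and 5.88 with wild type and 7.39, 6.05, 5.68 and 5.90 with G183S, was the only 1 of 6 macrophage genes highest in both replicates 1. Adgre1 went the other way and was lowest in both, at 5.59, 5.85 and 6.03 with wild type and 5.76, 7.16, 7.46 and 7.56 with G183S. Cd68 was lowest of the wild-type arrays in replicate 1, at 8.66, 9.78 and 9.70. The parts of Pax5 level, of these markers and of the first principal component in the sterol pattern were not tested.

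**Figure D3:**
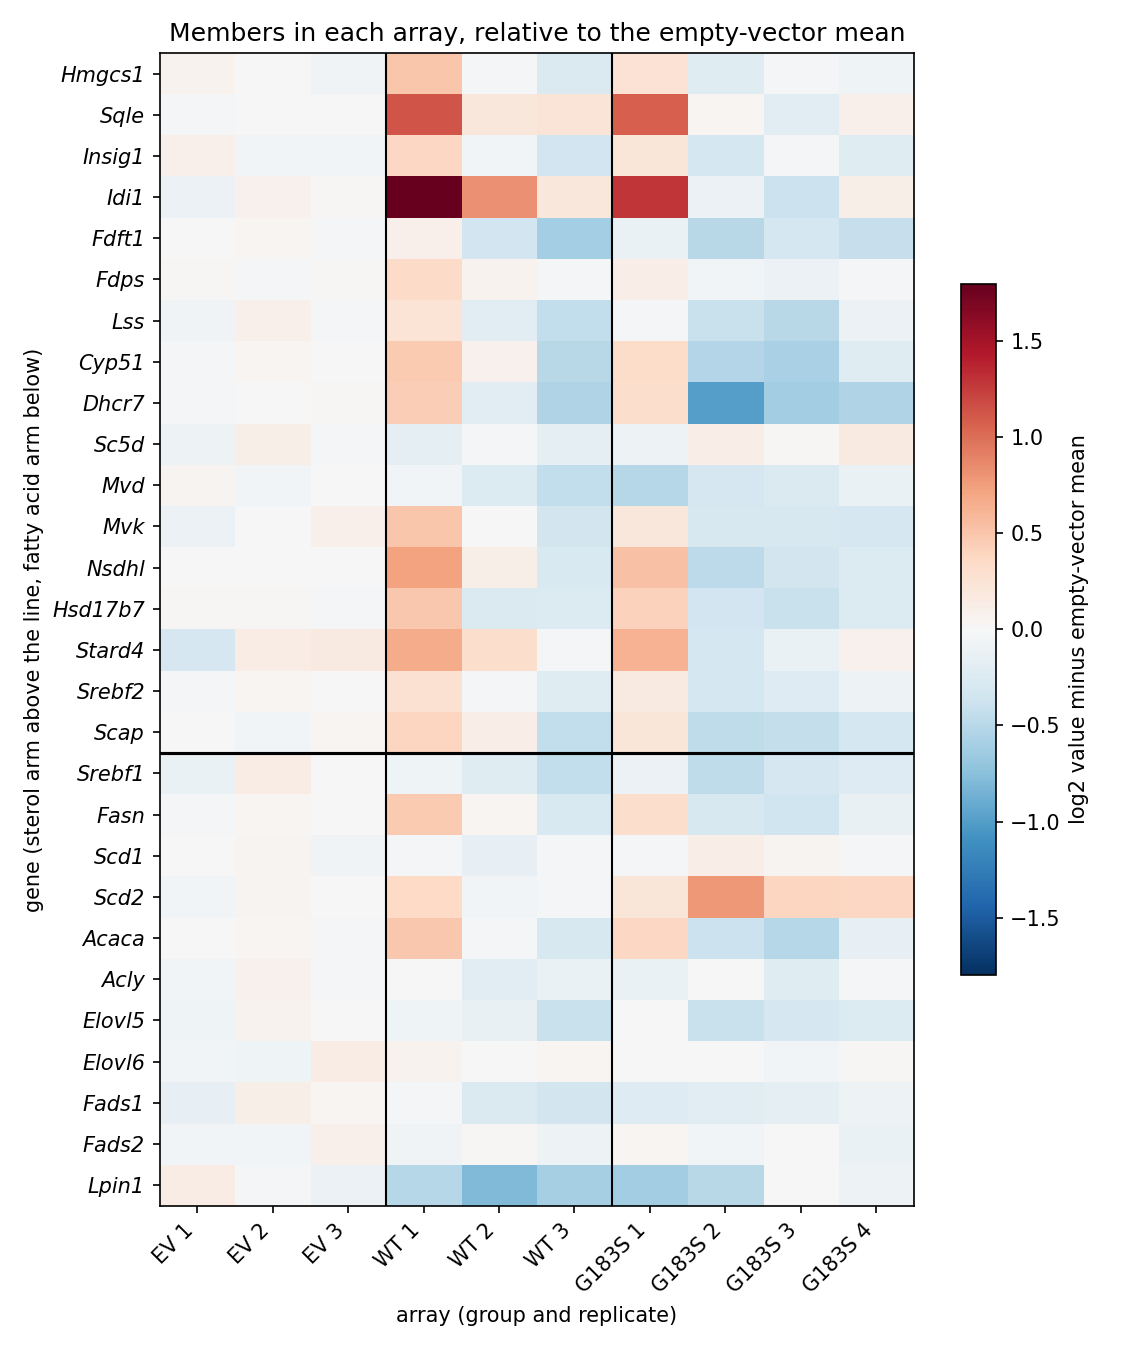
Each measured member (rows, sterol arm above the line) in each array (columns), coloured by its log2 value minus the empty-vector mean. Red columns at wild-type replicate 1 and G183S replicate 1 run through most sterol genes and through Fasn and Acaca, and blue prevails in wild-type replicate 3 and G183S replicates 2 to 4.

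In the mevalonate steps, Idi1, the isomerase of isopentenyl diphosphate, spread most. It read 9.01, 9.19 and 9.13 log2 units with empty vector, 10.91, 9.93 and 9.32 with wild type and 10.40, 9.01, 8.73 and 9.22 with G183S. The arrays of the wild-type group all lay above empty vector, replicate 3 only narrowly, and G183S arrays lay on both sides. The difference was 0.94 ± 0.45 SE for wild type (limma adjusted p = 0.345) and -0.71 ± 0.42 SE between G183S and wild type (limma adjusted p = 0.585). Without wild-type replicate 1 these were 0.51 and -0.29, and the second was -1.08 without wild-type replicate 3 and -1.07 without G183S replicate 1. A probe set of Idi1 that was not used gave 0.79 for wild type and -0.01 for G183S against empty vector, where the one used gave 0.94 and 0.23. Hmgcs1 read 9.59, 9.52 and 9.47 log2 units with empty vector, 10.02, 9.50 and 9.26 with wild type and 9.79, 9.31, 9.50 and 9.44 with G183S. Its replicates 1 were again the highest, although by less.

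Mvd, the decarboxylase that ends the mevalonate pathway, did not follow that order in G183S. Its values were 9.37, 9.27 and 9.31 log2 units with empty vector, 9.27, 9.07 and 8.88 with wild type and 8.81, 9.02, 9.06 and 9.21 with G183S. All wild-type and all G183S arrays lay below all empty-vector arrays, wild-type replicate 1 by less than the rounding, and G183S replicate 1 was the lowest of its group. Its differences of -0.25 ± 0.12 SE with wild type and -0.30 ± 0.11 SE with G183S did not pass (limma adjusted p = 0.344 and 0.315), and the first was -0.15 without wild-type replicate 3. For the kinase gene Mvk, replicate 1 exceeded the mean of its other arrays by 0.67 with wild type and 0.49 with G183S. For Fdps, which makes farnesyl diphosphate, these gaps were 0.33 and 0.18 log2 units. Fdps differed by -0.14 ± 0.09 SE between G183S and wild type (limma adjusted p = 0.609), and by -0.04 without wild-type replicate 1.

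Squalene is made by the product of Fdft1 and oxidised by that of Sqle before Lss closes the rings. Fdft1 read 10.04, 10.07 and 10.00 log2 units with empty vector, 10.12, 9.70 and 9.43 with wild type and 9.92, 9.54, 9.72 and 9.62 with G183S. Every G183S array lay below every empty-vector array, and of the wild-type arrays only replicate 1 lay above them. The difference was -0.34 ± 0.15 SE with G183S and -0.29 ± 0.16 SE with wild type (limma adjusted p = 0.428 and 0.417). The wild-type difference was -0.47 without wild-type replicate 1 and -0.13 without replicate 3. A probe set of Fdft1 that was not used gave smaller differences, -0.245 with G183S and -0.208 with wild type. Sqle read 9.53, 9.57 and 9.56 log2 units with empty vector, 10.68, 9.76 and 9.78 with wild type and 10.63, 9.59, 9.36 and 9.64 with G183S. Its 3 wild-type arrays lay above all empty-vector arrays, replicate 1 by far the most, and the gap of G183S replicate 1 over its group was 1.09 log2 units. Lss had gaps of 0.56 and 0.31.

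Among the enzymes that turn lanosterol into cholesterol, Dhcr7, the last reductase, had the lowest G183S mean relative to empty vector. It read 9.41, 9.43 and 9.45 log2 units with empty vector, 9.88, 9.24 and 8.89 with wild type and 9.75, 8.44, 8.81 and 8.89 with G183S. In both Pax5 groups replicate 1 was above and every other array below the empty-vector range. The difference with G183S was -0.46 ± 0.29 SE (limma adjusted p = 0.654), and it was -0.72 without G183S replicate 1 and -0.28 without replicate 2. Nsdhl, a sterol dehydrogenase, spanned 0.01 log2 units over the empty-vector arrays, at 10.01, 10.01 and 10.03, while wild-type arrays read 10.74, 10.12 and 9.74 and G183S arrays 10.54, 9.55, 9.69 and 9.77. Cyp51, the demethylase of lanosterol, had replicate 1 higher by 0.68 with wild type and 0.77 with G183S, and Hsd17b7, a ketosteroid reductase, by 0.74 and 0.74.

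Sc5d, the sterol desaturase, went against the rest. Its arrays read 10.36, 10.55 and 10.43 log2 units with empty vector, 10.29, 10.42 and 10.29 with wild type and 10.35, 10.56, 10.46 and 10.61 with G183S, and replicate 1 was the lowest array of each Pax5 group, with wild-type replicate 3 level with it after rounding. Between G183S and wild type it differed by 0.17 ± 0.08 SE (limma adjusted p = 0.542), the only sterol gene above 0 there.

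**Figure D4:**
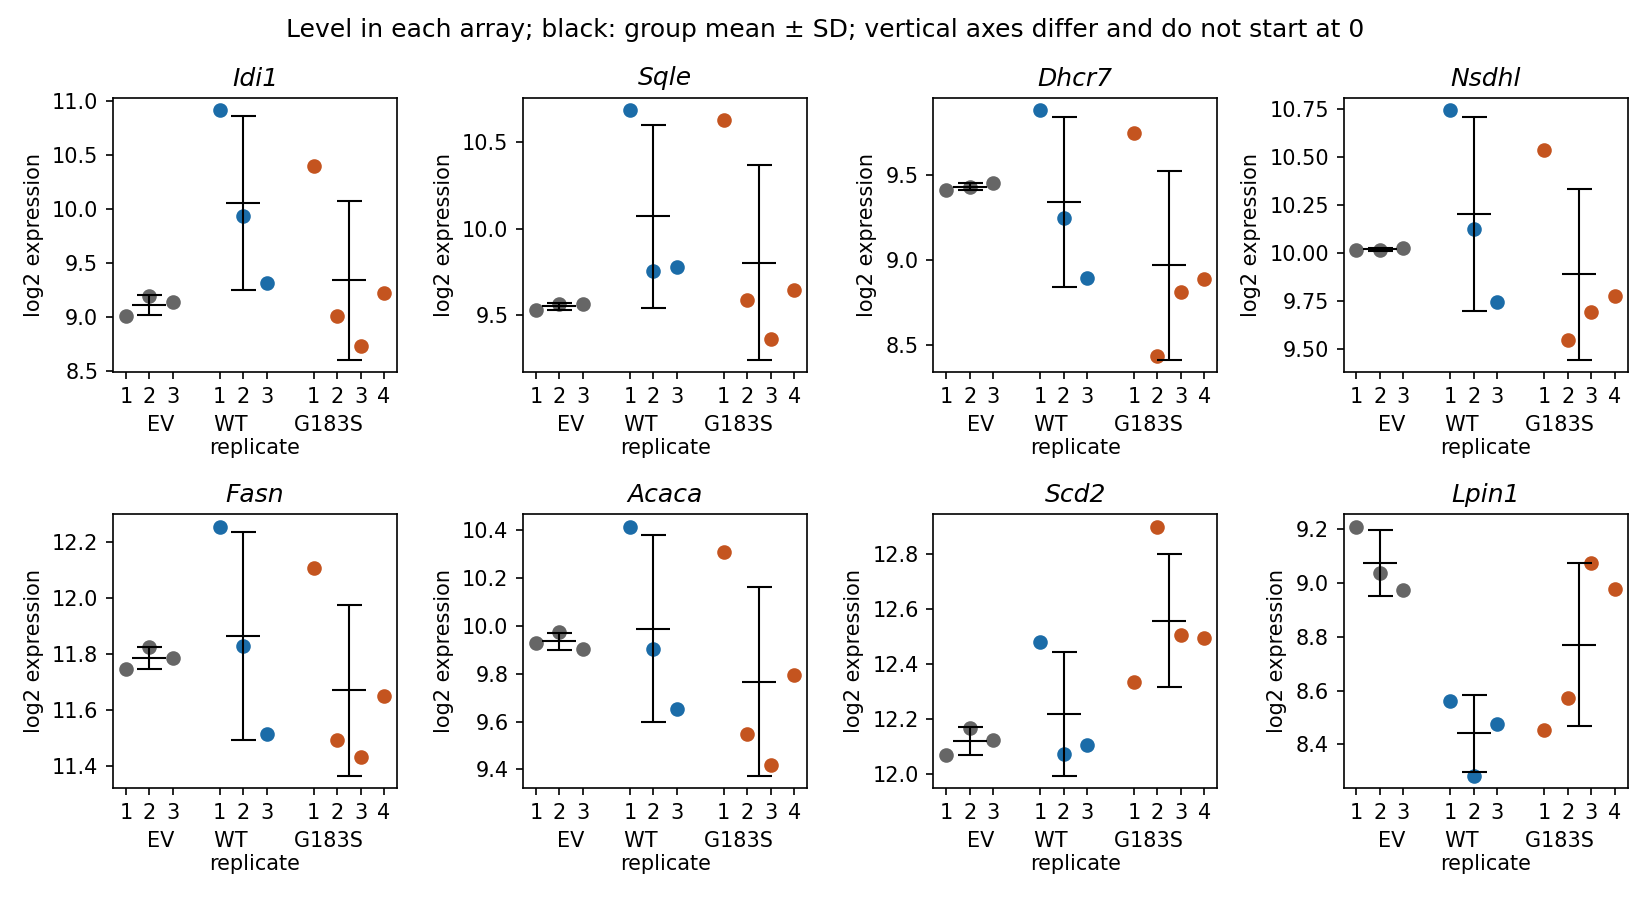
Log2 expression of 8 members in each array (points), with the group mean and SD in black, for empty vector (grey), wild type (blue) and G183S (orange). Idi1, Sqle, Dhcr7, Nsdhl, Fasn and Acaca have replicate 1 highest in both Pax5 groups, and Scd2 and Lpin1 do not.

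Among the regulators, Srebf2, Scap and Insig1 had replicate 1 highest in both Pax5 groups and wild-type replicate 3 lowest of its group. Srebf2, the factor that favours sterol genes, read 10.95, 11.01 and 10.98 log2 units with empty vector, 11.25, 10.94 and 10.75 with wild type and 11.13, 10.67, 10.74 and 10.89 with G183S. Scap read 10.63, 10.59 and 10.67 log2 units with empty vector, 11.02, 10.75 and 10.19 with wild type and 10.85, 10.17, 10.21 and 10.32 with G183S. In both genes replicate 1 of each Pax5 group was above the empty-vector range, while wild-type replicate 3 and G183S replicates 2, 3 and 4 were below it. Insig1, itself an SREBP target, read 11.00, 10.85 and 10.86 log2 units with empty vector, 11.28, 10.86 and 10.56 with wild type and 11.12, 10.59, 10.87 and 10.69 with G183S, with the replicates 1 again highest. Unlike in the other 2 genes, its G183S replicate 3 lay within the empty-vector range. None of these passed against empty vector (limma adjusted p = 0.993, 0.979 and 0.997 with wild type and 0.844, 0.766 and 0.933 with G183S). Stard4, a sterol carrier, had replicate 1 higher by 0.52 and 0.74 log2 units.

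The fatty acid arm was less uniform. Its mean differed from the empty-vector mean by 0.05, -0.16 and -0.23 log2 units in wild-type arrays and by -0.02, -0.13, -0.13 and -0.07 in G183S arrays. Wild-type replicate 1 was the highest wild-type array in 10 of 11 genes (9 of 11 after a further quantile normalization), but G183S replicate 1 led its group in 5 of 11. The median SDs were 0.08, 0.16 and 0.14 log2 units for empty vector, wild type and G183S.

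**Figure D5:**
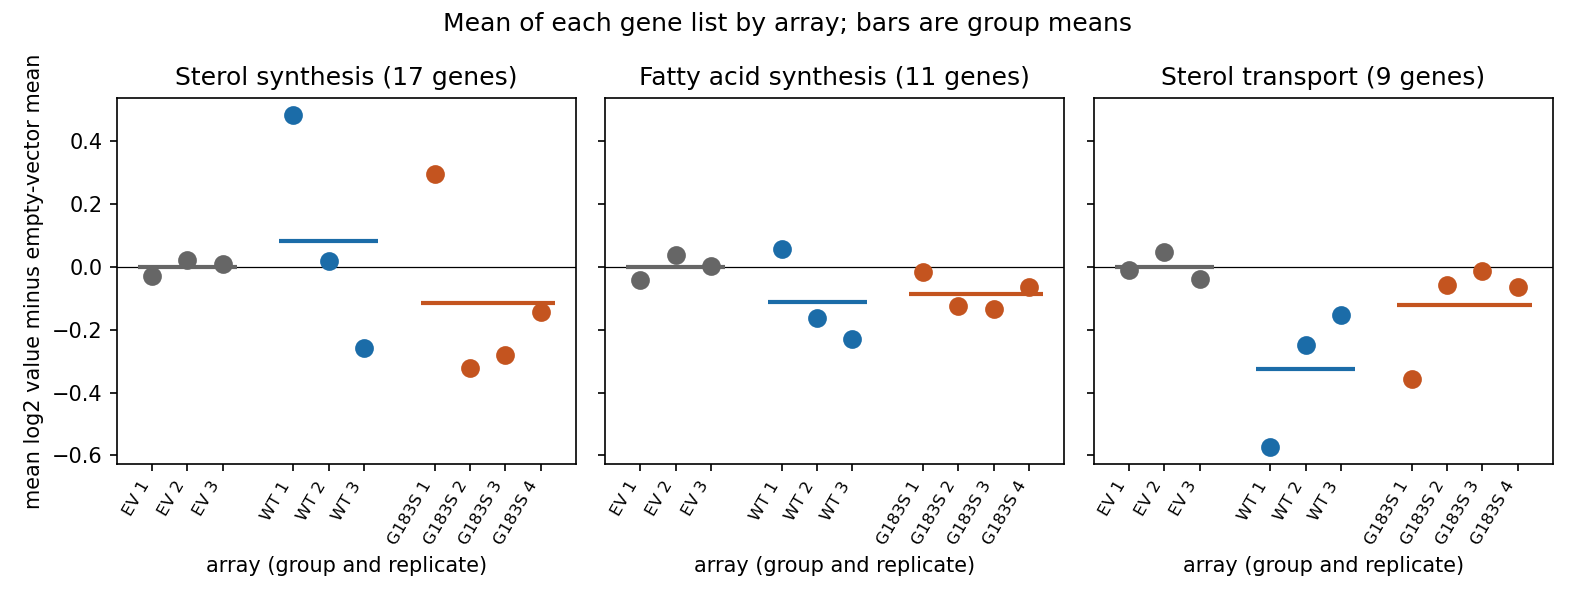
Mean log2 value of each list minus its empty-vector mean in every array, with bars at the group means, for sterol synthesis, fatty acid synthesis and sterol transport genes. Sterol synthesis is highest and sterol transport lowest in wild-type replicate 1 (0.48 and -0.57), and in G183S replicate 1 within its group.

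Fasn, fatty acid synthase, and Acaca, the carboxylase that supplies it, had replicate 1 highest in both Pax5 groups and wild-type replicate 3 lowest of its group, like most sterol genes. Fasn read 11.75, 11.83 and 11.78 log2 units with empty vector, 12.25, 11.83 and 11.51 with wild type and 12.11, 11.49, 11.43 and 11.65 with G183S, and Acaca 9.93, 9.97 and 9.90 log2 units with empty vector, 10.41, 9.90 and 9.65 with wild type and 10.31, 9.55, 9.42 and 9.79 with G183S. In each, both replicates 1 lay above the empty-vector range, and wild-type replicate 3 and the other G183S arrays lay below it. Neither passed (limma adjusted p = 0.894 and 0.943 with wild type, 0.911 and 0.879 with G183S). A probe set of Acaca that was not used gave 0.24 with wild type and 0.14 with G183S against empty vector, where the one used gave 0.05 and -0.17.

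Srebf1, the factor that favours fatty acid genes, had lower means with both constructs, from 9.73 ± 0.13 (SD, n = 3) with empty vector to 9.48 ± 0.19 (n = 3) and 9.45 ± 0.14 (n = 4). The arrays were 9.60, 9.86 and 9.72 log2 units with empty vector, 9.65, 9.51 and 9.28 with wild type and 9.62, 9.27, 9.43 and 9.49 with G183S, so the groups met at the edge, where replicates 1 of the Pax5 groups overlapped the lowest empty-vector array. The differences were -0.25 ± 0.12 SE and -0.27 ± 0.11 SE (limma adjusted p = 0.345 and 0.372), and the first was -0.15 without wild-type replicate 3. Elovl5, an elongase of polyunsaturated fatty acids, differed by -0.24 ± 0.11 SE with G183S (limma adjusted p = 0.457). It read 11.18, 11.33 and 11.27 log2 units with empty vector, 11.19, 11.12 and 10.85 with wild type and 11.26, 10.86, 10.96 and 11.01 with G183S, with the G183S replicate 1 inside the empty-vector range and the others below it. Fads1, a front-end desaturase, read 10.78, 11.04 and 10.97 log2 units with empty vector, 10.91, 10.66 and 10.60 with wild type and 10.70, 10.73, 10.77 and 10.84 with G183S. Its groups overlapped with wild type, and the difference of -0.20 ± 0.10 SE did not pass (limma adjusted p = 0.349).

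Lpin1 and Scd2 came nearest to the threshold. Lpin1, a phosphatidate phosphatase of glycerolipid synthesis, read 9.21, 9.04 and 8.97 log2 units with empty vector, 8.56, 8.28 and 8.48 with wild type and 8.45, 8.57, 9.08 and 8.98 with G183S. All wild-type arrays lay below all empty-vector arrays, while G183S replicates 3 and 4 reached the empty-vector range. The difference was -0.63 ± 0.16 SE with wild type (limma adjusted p = 0.0872) and 0.33 ± 0.15 SE between G183S and wild type (limma adjusted p = 0.528). Without G183S replicate 1, which only enters that comparison through the shared estimate of spread, Lpin1 passed with wild type (limma adjusted p = 0.0295), as it did with only the empty-vector and wild-type arrays in the fit (limma adjusted p = 0.0289). Over all alternatives its limma adjusted p ran from 0.00633 to 0.250.

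Scd2, a stearoyl-CoA desaturase, had the highest difference of the 28 members with G183S. It read 12.07, 12.17 and 12.12 log2 units with empty vector, 12.48, 12.07 and 12.11 with wild type and 12.33, 12.90, 12.51 and 12.49 with G183S. All 4 G183S arrays exceeded all empty-vector arrays, replicate 2 the most, and of the wild-type arrays only replicate 1 did. The differences were 0.44 ± 0.14 SE from empty vector (limma adjusted p = 0.216) and 0.34 ± 0.14 SE from wild type (limma adjusted p = 0.508). The second was 0.23 without G183S replicate 2. Scd1, the other desaturase of this pair, was at 4.42 to 4.68 log2 units in every array, and differed by 0.09 ± 0.07 SE between G183S and wild type (limma adjusted p = 0.648). Scd1, the elongase gene Elovl6 and the desaturase gene Fads2 lay below 6.89, the median of all probe-set values, in every group, and change in dim genes is hard to see. Acly, which makes cytosolic acetyl-CoA, kept within 10.30 to 10.59 over all arrays.

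Leaving out replicate 1 of both Pax5 groups was tried after the data were seen, because the sterol members were high in those arrays. That choice itself lowers the Pax5 means of most sterol genes and narrows their spread, so nothing is read from the calls of that fit. For Scd2 it raises the G183S mean, since replicate 1 was its lowest G183S array. In that fit Fdft1 and Lpin1 passed as lower with wild type, and Fdft1, Dhcr7 and Hsd17b7 as lower and Scd2 as higher with G183S, where 3.46% and 4.46% of all genes passed. Between G183S and wild type 0 members passed (2.1% of all genes).

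Other genes of lipid metabolism were read from 3 further lists, 44 measured genes in all. With wild type, 1 rose (0.883% of all genes) and 3 fell (0.993%) at limma's adjusted p of 0.05, and with G183S (0.311%) or between the constructs (0%) 0 passed. At an unadjusted p of 0.05 the counts were 13, 9 and 8 of 44, against 15.9%, 11.3% and 9.48% of all genes. Among 11 further genes of sterol synthesis and its control 0 passed in any comparison, and wild-type replicate 1 was the highest of its group in 5 and G183S replicate 1 in 3. Abcg1, which exports sterol, fell with wild type by 1.61 ± 0.34 SE log2 units (limma adjusted p = 0.0469). It read 10.44, 10.38 and 10.45 log2 units with empty vector, 8.0, 9.11 and 9.33 with wild type and 8.96, 9.71, 10.05 and 9.80 with G183S. Without wild-type replicate 1 its difference with wild type was -1.20 and did not pass (limma adjusted p = 0.0894). Here replicate 1 was the lowest array of each Pax5 group, the reverse of the sterol synthesis genes.

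The same held for most genes of sterol transport and storage. Wild-type replicate 1 was the lowest of its group in 7 of 9 (41.6% of all genes) and G183S replicate 1 in 6 of 9 (32.6%). The list mean differed from empty vector by -0.57, -0.25 and -0.15 log2 units in wild-type arrays and by -0.36, -0.06, -0.01 and -0.06 in G183S arrays.

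In fatty acid and glycerolipid synthesis, 3 of 24 genes passed with wild type (1.88% of all genes). Wild-type replicate 1 was the highest of its group in 15 of the 24 (33.5% of all genes) and G183S replicate 1 in 11 (28.9%). Both held together in 10 (16.6%), so this order was also seen in part outside the sterol arm. Acss2, which makes acetyl-CoA from acetate, read 8.38, 8.37 and 8.38 log2 units with empty vector, 7.82, 7.64 and 7.50 with wild type and 7.86, 7.93, 8.14 and 8.03 with G183S. Its 3 groups did not overlap, with G183S between the others, and it fell by 0.72 ± 0.10 SE with wild type (limma adjusted p = 0.0126). Gpam, the first enzyme of glycerolipid synthesis, fell by 0.48 (limma adjusted p = 0.0216), from 9.16, 9.20 and 9.16 to 8.80, 8.71 and 8.55 log2 units. Dgat2, which makes triacylglycerol, rose by 0.56 (limma adjusted p = 0.0175), from 6.99, 6.92 and 6.79 to 7.44, 7.45 and 7.50. With G183S, Acss2 differed by -0.39, Gpam by -0.27 and Dgat2 by 0.18 (limma adjusted p = 0.103, 0.147 and 0.432). The calls with wild type changed when single arrays were left out, as did those over all genes. Of the 44 genes 0 passed without empty-vector replicate 2 (0.105% of all genes) or 3 (0.0301%). Without empty-vector replicate 1, 2 passed (Acss2 and Dgat2, with 0.612% of all genes), and 8 passed without G183S replicate 1 (5.18%). A linear model without moderation called 0 (0.0201% of all genes).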

How the data were processed

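The authors deposited log2 values for each probe set of 1-colour Affymetrix whole-transcript arrays, hybridised from 100 ng of total RNA per the labels' protocols. The submitters' processing notes name RMA and Partek, with no version or role. Whether all arrays were normalized as 1 set is not given in the sources used here. Since RMA equalises distributions, a change of most genes at once would be hidden. Of 34760 probe sets, 21640 had 1 symbol in the platform annotation, 1321 several and 11799 none; the highest-mean probe set stood for each of 19937 genes.

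All 10 arrays entered 1 limma 3.58.1 fit in R 4.3.3 (1 coefficient per group, empirical Bayes, 7 residual and 2.88 prior degrees of freedom), with Benjamini-Hochberg adjustment over 19937 genes; two-sided adjusted p under 0.05 was called. Error is limma's SE, and the number of arrays limits precision. The fit was tested only on simulated data with independent genes and the same spread in every group. Those data lacked the shared deviations and unequal spreads seen here. Members and lists were chosen with earlier results of these data known. Values are given in every array for the 3 members of each arm with the smallest p in each comparison, any past the threshold, and Srebf1, Srebf2, Scap and Insig1; Hmgcs1, Sqle, Nsdhl, Fasn, Acaca and single values of other members were added after values were seen. Genes of the other lists were named if past the threshold. Promoter sequences are RefSeq's, for 23 of 30 members. Figures used Python 3.11.15 and matplotlib 3.10.9. No scan batch was tested, since scanner files were not used. Same-numbered arrays did not deviate together in every pair, so the replicate number was not in the fit.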

Additional observations from a re-analysis of the deposited data

Results flagged for a closer look

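Mvk among the G183S arrays had 1 array far from the others. It read 9.26, 8.78, 8.77 and 8.75 log2 units, and the gap of replicate 1 to its nearest neighbour was 0.950 of the group's range and past Dixon's critical value at the 95% level. Chance sets off this rule in about 1 group in 20. Of the 28 members 1 met it, as did 7.46% of all genes.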

How the results depend on the processing

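All 6 arm medians moved by less than the spread between arrays under every alternative. That spread was the larger SD of the arm's median over the arrays of the 2 groups, which leaving out 1 array can hardly exceed. This result is therefore no sign of stable medians. The sterol median with wild type changed sign without wild-type replicate 1. Of the 18 member differences followed here, those with the smallest p in each arm and comparison, 0 changed sign, which that choice favours. Other members did change sign. Without wild-type replicate 1, Hmgcs1 went from 0.07 to -0.15 and Fasn from 0.08 to -0.12 with wild type. Without G183S replicate 1, Sqle went from 0.25 to -0.02 with G183S. In the leave-one-out fits, fatty acid members called with wild type numbered 0 to 1, and other lipid genes 0 to 8 with wild type, 0 to 1 with G183S and 0 to 6 between the constructs (6 without G183S replicate 1). With array weights (0.335 for G183S replicate 1) fatty acid members called were 2, 3 and 2 and other lipid genes 11, 6 and 10 in the 3 comparisons, and 1 sterol member passed with G183S; over all genes 2576, 1449 and 2752 passed in place of 374, 62 and 0. Over all genes the leave-one-out fits called 6 to 1033, 8 to 295 and 0 to 1113, the fit on 2 groups 587, 84 and 0, and a test of all probe sets 189, 53 and 0. With arrays centred on their medians 318 genes passed with wild type, 100 higher and 218 lower, in place of 176 higher and 198 lower. With only the 2 groups compared in the fit, 1 fatty acid member passed with wild type. Without moderation 0 other lipid genes passed with wild type (4, 6 and 1 over all genes). Without replicate 1 of both Pax5 groups, a setting added after seeing the data because the sterol members were high there, sterol members called were 1 with wild type and 3 with G183S, fatty acid members 1 and 1, and other lipid genes 7, 4 and 2. Of all genes 3.46%, 4.46% and 2.1% passed in that fit in the 3 comparisons. With the replicate number as a block, 0 members of either arm were called in any comparison (228, 10 and 2 of all genes). That block also held the empty-vector arrays, and a pairing of the Pax5 groups alone was not fitted. Over all genes, deviations of same-numbered arrays of the 2 Pax5 groups correlated at 0.51 for replicates 1, -0.16 for replicates 2 and 0.455 for replicates 3. Between empty-vector and Pax5 arrays they correlated at -0.16 to 0.11. The numbers were therefore not taken to pair all arrays, and what replicates 1 and 3 of the Pax5 groups shared was not tested. Member counts by all other alternatives were as reported. The few arrays limit what can be seen, and dim members could hide change.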
